A study of Mus musculus with 3 samples.

Results

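The proteasome genes described here are the 50 of 55536 genes in the deposited gene tables whose symbol starts with Psm, a letter from a to g and a digit, and which have a protein-coding transcript. They comprised 7 alpha subunits of the 20S core, 4 structural beta subunits, 3 constitutive and 3 inducible catalytic beta subunits, 6 ATPases and 11 non-ATPase subunits of the 19S particle, 5 activators, 1 inhibitor, 7 assembly chaperones, the tissue-restricted subunits Psma8 and Psmb11, and Psmc3ip. Psmc3ip meets the symbol rule but encodes a meiotic recombination factor and no proteasome subunit, so 49 members are subunits or factors of the proteasome.

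RNA of the cytosolic fraction was sequenced after removal of ribosomal RNA in 3 libraries of one group, replicates 1, 2 and 3. The cells were bone-marrow-derived macrophages of C57BL/6J mice, grown from marrow rather than taken from a tissue. All of them had received Lipid A, the part of lipopolysaccharide that TLR4 recognises, at 100 ng/ml for 12 h, a washout of 12 h, and Lipid A again at 100 ng/ml for 10 min. Sex and age were not collected, and no library without Lipid A was analysed here, so nothing below is a response to it. The 3 libraries carry one donor identifier, and p-values between them measure only the spread between these libraries, which may be technical.

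The proteasome degrades proteins tagged with ubiquitin. Its 20S core is a barrel of alpha and beta rings, in which Psmb5, Psmb6 and Psmb7 are the proteolytic subunits, and the 19S particle binds, unfolds and feeds in the substrate. In immune cells, and in other cells exposed to interferon gamma, Psmb8, Psmb9 and Psmb10 take the places of Psmb5, Psmb6 and Psmb7 in newly built cores to form the immunoproteasome, which changes the peptides made for MHC class I. Psme1 and Psme2 form the PA28 cap, an activator that opens the core without ubiquitin.

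Sequences from 2 features of these genes are shown because later results refer to them. The first is an intron that Psmb8-203, the main protein-coding transcript of Psmb8, splices out and that Psmb8-205, classed as retained intron in GENCODE M21, keeps. All lie on the plus strand of mm10 chromosome 17, and the intron is chr17:34199381-34199570, which is 190 bases long.
Psmb8-203 across the splice junction, capitals marking the first bases of the next exon: cagggagttacattaGCTCCTTAAGGATGA
Psmb8-205 at chr17:34199366-34199395, capitals marking the first bases of the retained intron: cagggagttacattaGTGAGTATGTGTGCT
Psmb8-205 at chr17:34199556-34199585, capitals marking the last bases of the retained intron: TCAAAACTCTTCCAGgctccttaaggatga

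The second feature is motif matches in the RefSeq promoter windows of GRCm38.p6, from 250 bases before to 50 after each start, which held 45 windows for 42 members. Lines below give the gene's strand, with the match in capitals.
Psmb8, plus strand, chr17:34198088-34198117, match to the GAS letters from -97 to -89 of the start: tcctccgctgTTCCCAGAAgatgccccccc
Psme1, plus strand, chr14:55578493-55578522, match to the ISRE letters on the opposite strand from 9 to 18: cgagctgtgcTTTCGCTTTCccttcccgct
Psmb5, minus strand, chr14:54618023-54618052, match to the ARE letters from -47 to -39: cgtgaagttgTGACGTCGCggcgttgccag
Psmb6, plus strand, chr11:70525338-70525367, match to the ARE letters from -9 to -1: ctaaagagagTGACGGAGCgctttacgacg
The letters searched on both strands were GAAA, any 2 bases and GAAA again for ISRE, an element that interferon regulatory factors bind, TTCNNNGAA for GAS, an element of interferon gamma signalling, and TGACNNNGC for ARE, bound by NRF1 and NRF2. ISRE letters occurred in 5 of the 45 member windows and in 3.44% of all 32851 windows. For GAS the figures were 3 of 45 and 8.30%, and for ARE 6 of 45 and 12.4%. Matches not printed above were spread over other classes of members. They were ISRE in Psmb3, Psmd4, Psmd9 and Psmg4, GAS in Psmd2 and Psmg1, and ARE in Psmc6, Psmd12, Psmd9 and Psme4. The matches overlapped no match of another motif. No letters of these motifs were in the windows of Psmb9, Psmb10 and Psme2. Positions are counted from the RefSeq start of each window, which need not be a GENCODE start. The Psmb8 match lies downstream of the start of Psmb8-203 at chr17:34197721. It falls within the first exon of Psmb8-201, chr17:34197790-34198545. The Psme1 match likewise lies downstream of the GENCODE gene start at chr14:55578123. A match describes the letters alone.

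Libraries held 32108408, 53165872 and 57117456 expected counts in replicates 1, 2 and 3. Levels are given as TPM, the deposited unit in which counts are divided by transcript length and scaled to one fixed total per library. Replicate 1 stood apart: the nuclear noncoding RNA Malat1 was at 1333 TPM there, against 118 and 152 in replicates 2 and 3, and nuclear-encoded protein-coding genes took 34.3% of its TPM, against 27.8% in both others. Calls, spreads and orders between libraries are therefore given with and without it. All 6 macrophage markers, among them Lyz2, Cd68, Adgre1 and Csf1r, reached 10 TPM in every library, with a summed level of 4168 to 4856 TPM. Markers of T cells, B cells, erythroid cells, fibroblasts, testis and thymic epithelium were each below 1 TPM, with Cd3e, Hbb-bs, Tnp1 and Foxn1 at 0. Of the neutrophil and dendritic cell markers, S100a8 had 3.04 ± 1.01 TPM and Ccr7 had 0.997 ± 0.251 TPM (SD, n = 3), while Ly6g and Cd209a were at 0. In bulk RNA, fewer cells of a type and less RNA per cell cannot be told apart.

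As a group, the proteasome genes were broadly and highly expressed. Of the 50 members, 47 reached 1 TPM in every library, a level that 41.4% of 22028 protein-coding genes reached, and 41 reached 10 TPM, against 17.3% of protein-coding genes. Their median level was 34.8 TPM, against 8.73 TPM over the protein-coding genes of at least 1 TPM in every library. Together they held 0.811%, 0.812% and 0.861% of the nuclear-encoded protein-coding TPM in replicates 1, 2 and 3. Levels of different genes are compared on the TPM scale throughout.

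Over all transcripts of a gene, the highest members were 4 genes of the immunoproteasome and its PA28 cap. Over protein-coding transcripts alone, only Psme2 and Psme1 kept these places, with means of 202 and 148 TPM. The mean of Psmb6, 112 TPM, then passed that of Psmb8, 106 TPM, though their libraries overlapped. Psmb10, at 69.1 TPM, then lay below Psmb6 and Psmd8, the latter at 98.8 TPM. Psme2, the beta subunit of PA28, had 277, 189 and 232 TPM in replicates 1, 2 and 3 (mean 233 ± 44.2, SD, n = 3). Psmb8, the inducible counterpart of Psmb5, had 252, 165 and 201 TPM (206 ± 43.9). Psmb10, the counterpart of Psmb7, had 215, 149 and 167 TPM (177 ± 34.4). These 3 genes were highest in replicate 1 and lowest in replicate 2 on the TPM scale. Psme1, the alpha subunit of PA28, had the same order, at 182, 137 and 163 TPM (161 ± 22.5). Psmb9, the counterpart of Psmb6, was lower at 83.9, 57.7 and 54.1 TPM (65.2 ± 16.3). The genes that mark the constitutive and the immune form were all detected: Psmb5, Psmb8, Psmb9, Psmb10 and Psme1 were each above 45 TPM in every library.

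**Figure D1:**
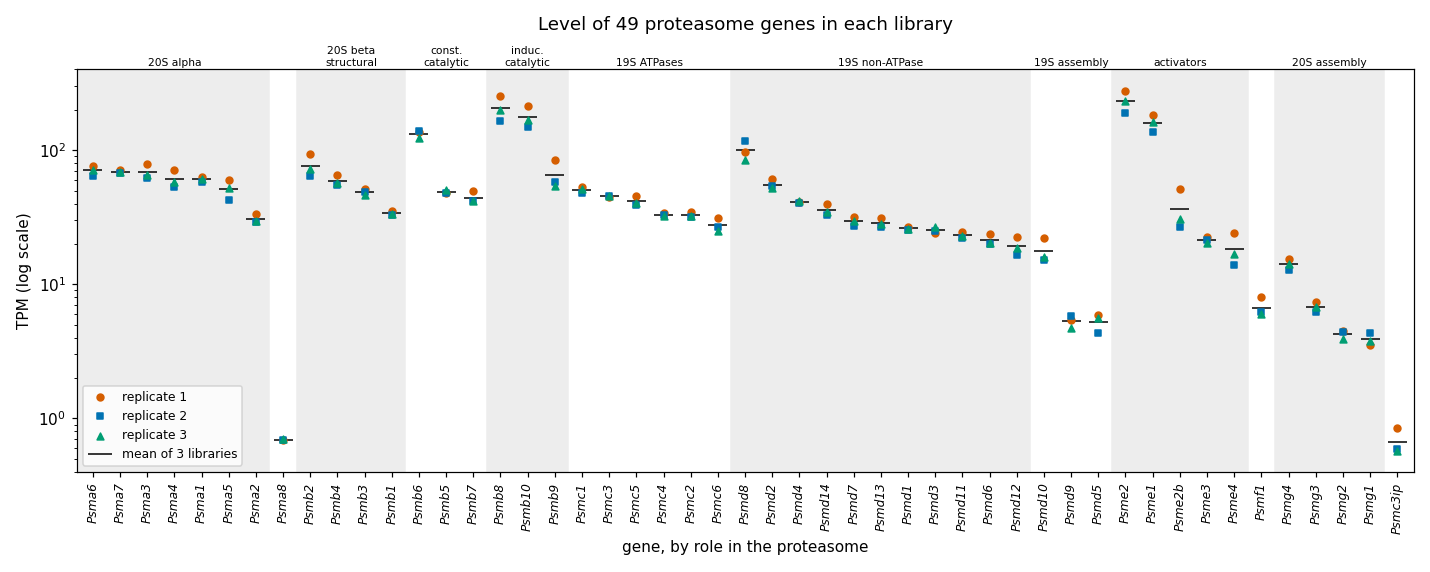
TPM (log scale) of each member above 0, by role, with 1 point per library and a line at the mean; Psmb11, with 0 counts, is not drawn. Psme2, Psmb8, Psmb10, Psme1 and Psmb6 lie above 100 TPM in every library, while the assembly chaperones, the inhibitor Psmf1, Psma8 and Psmc3ip lie lowest.

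The 3 constitutive catalytic subunits were not at one level. Psmb6, the caspase-like subunit, had 136, 139 and 123 TPM (133 ± 8.13). Psmb5, which carries the chymotrypsin-like activity and is the main target of bortezomib, had 48.1, 47.9 and 50.6 TPM (48.9 ± 1.51). Psmb7, the trypsin-like subunit, had 49.4, 41.5 and 42.1 TPM (44.3 ± 4.40). The values of Psmb5 and Psmb7 overlapped, whereas Psmb6 lay above both in every library.

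Each inducible subunit was set against the constitutive one whose place it takes, as a log2 ratio of TPM within each library. Psmb8 over Psmb5 was 2.39, 1.78 and 1.99 (mean 2.05 ± 0.31, SD, n = 3), a 4.15-fold higher level. Psmb10 over Psmb7 was 2.12, 1.84 and 1.98 (1.98 ± 0.14), or 3.96-fold. Psmb9 over Psmb6 went the other way, at -0.69, -1.26 and -1.19 (-1.05 ± 0.31), so that Psmb9 had 0.483 times the level of Psmb6. The sum of the 3 inducible over the sum of the 3 constitutive genes was 1.24, 0.70 and 0.96 (0.97 ± 0.27), or 1.96-fold. Each ratio had one sign in all 3 libraries and a mean over 3 times its SD. The exact two-sided sign-flip permutation test gave p = 0.25 for each, and p = 0.25 after Benjamini-Hochberg adjustment over 8 comparisons, the smallest p that 3 libraries allow, so that no ratio could pass 0.05.

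These ratios depended on which transcripts were counted. Over protein-coding transcripts alone, an alternative chosen after seeing the data, Psmb8 had 124, 84.3 and 109 TPM, and its level over Psmb5 was 2.14-fold rather than 4.15-fold. Psmb10 had 76.3, 61.5 and 69.4 TPM in coding transcripts, 1.56-fold over Psmb7. Psmb9 over Psmb6 barely moved, to 0.516 times. The ratio of the sums shrank to a log2 value of 0.42, -0.09 and 0.20, a mean of 1.13-fold, and changed side of 0 in replicate 2. Psmb8 over Psmb5 and Psmb10 over Psmb7 stayed above 0 on the log2 scale in every library.

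**Figure D2:**
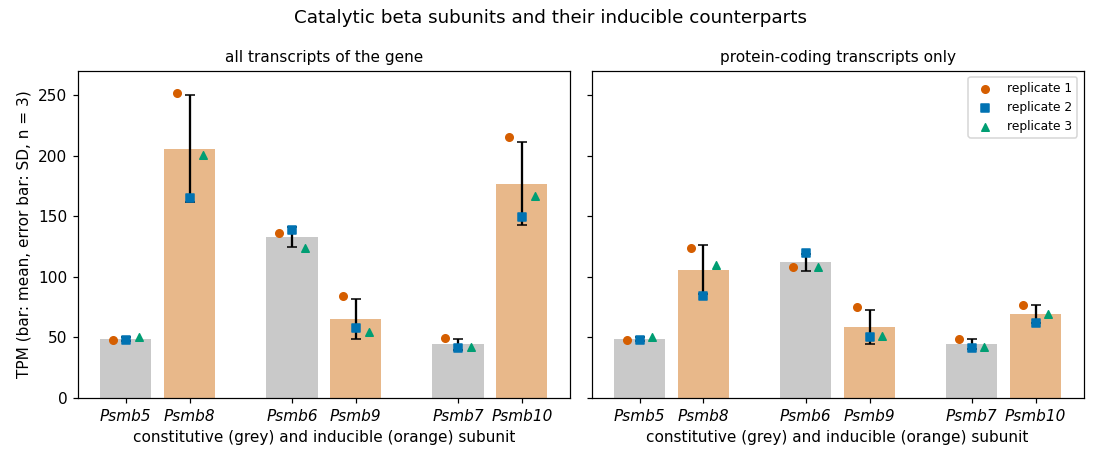
TPM of each catalytic subunit beside its inducible counterpart, over all transcripts (left) and protein-coding transcripts (right), with bars at the mean, error bars of 1 SD and a point for each of the 3 libraries. Psmb8 falls from a mean of 206 to 106 TPM and Psmb10 from 177 to 69.1 TPM, while Psmb5 and Psmb7 stay near 49 and 44 TPM.

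Most members were expressed almost wholly as protein-coding transcripts. Across the 47 members of at least 1 TPM, protein-coding transcripts held a median of 98.5% of a gene's TPM, and 41 of the 47 were above 90%. Only 4 were below 75%: Psmb10, Psma3, Psmb8 and Psmd13. By the kallisto-type estimates that the authors also deposited, Psmc6 was below it too. Psmc6 had 52.0%, 70.7% and 83.2% in replicates 1, 2 and 3 by these estimates (mean 68.6%), and Psma3 had a mean of 36.1%. The same shares over all genes were not counted. Psmb5 had 100% and Psmb7 had 99.6% in protein-coding transcripts.

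In Psmb8, retained-intron transcripts held 50.8%, 48.8% and 45.4% of TPM in replicates 1, 2 and 3 (48.4 ± 2.73%), nearly all of it in Psmb8-205. Kallisto-type estimates, made by the authors directly from the reads, gave 49.8% for the same class. Psmb8-205 has 1234 bases and Psmb8-203 has 840. They differ in the retained intron shown above, and also in the last exon, of 273 bases in Psmb8-205 and 28 in Psmb8-203, whose annotated end lies 245 bases upstream, and in a first exon of 41 bases found in Psmb8-203 alone. The tables do not separate reads in the intron from reads in the longer last exon, so the share is an assignment between models and no measure of intron reads.

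In Psmb10 the share outside coding transcripts came largely from Psmb10-203, a processed transcript of 426 bases, with 49.0%, 47.9% and 42.2% of TPM (46.4 ± 3.65%). The same class held 15.9% of the gene's expected counts, since a short transcript gains weight when counts are divided by length. Protein-coding Psmb10-201 held 39.5 ± 3.48% of TPM and 75.3% of counts. Psma3, an alpha subunit of the core, had 49.4 ± 0.48% in coding transcripts, 27.5 ± 4.80% in retained-intron and 23.1 ± 4.43% in nonsense-mediated decay transcripts. Psmd13, a subunit of the 19S lid, had 62.1 ± 5.35% in coding transcripts and 34.1 ± 0.89% in nonsense-mediated decay transcripts. Among the catalytic partners, Psmb6 had 20.4%, 13.8% and 12.6% in retained-intron transcripts in replicates 1, 2 and 3 (15.6 ± 4.18%). Psmb9 had 7.34%, 1.72% and 2.46%, so replicate 1 was highest in both. In Psme2 replicate 1 was instead lowest, at 7.40%, 19.1% and 14.5%.

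**Figure D3:**
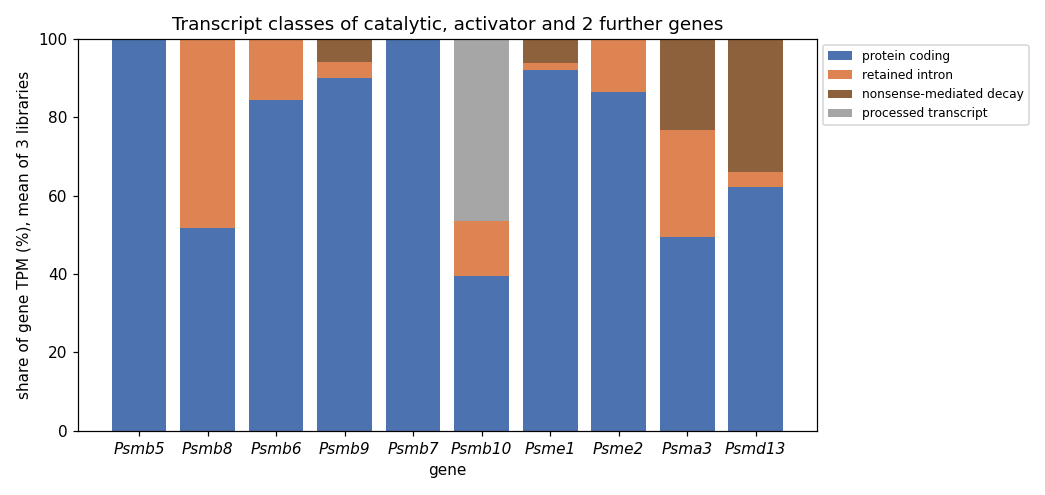
Share of a gene's TPM in each GENCODE transcript class (percent, mean of 3 libraries) for the catalytic genes, Psme1, Psme2, Psma3 and Psmd13. Psmb8, Psmb10, Psma3 and Psmd13 have under 75% in protein-coding transcripts, whereas Psmb5 and Psmb7 are almost wholly coding.

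The alpha and the structural beta subunits each spanned a narrow range. The 7 alpha subunits, which form the outer rings and the gate, had a median of 61.0 TPM and ran from Psma2 at 30.8 ± 2.32 to Psma6 at 70.9 ± 6.27 TPM, a 2.30-fold range. Psma7 had 71.0, 67.7 and 69.2 TPM and Psma3 had 79.3, 61.6 and 65.4 TPM. Over all transcripts, Psma6, Psma7 and Psma3 therefore did not differ beyond their spread. Over protein-coding transcripts alone, Psma3 had 38.7, 30.5 and 32.5 TPM, below Psma6 and Psma7 in every library. Structural beta subunits, which have no active site, had a median of 53.8 TPM, from Psmb1 at 33.9 ± 1.35 to Psmb2 at 76.5 ± 14.9 TPM. On the log2(TPM + 1) scale, the median of the structural beta subunits lay -0.23 ± 0.07 from that of the alpha subunits. The tissue-restricted subunits were at or near 0: Psma8, the testis alpha subunit, had 0.69, 0.69 and 0.70 TPM, and Psmb11, the thymic cortex beta subunit, had 0 expected counts in every library. A count of 3 in one library would have given Psmb11 at most 0.030 TPM, which covers counting error only. The deposited upper bound of its TPM was 0.195 in replicate 1, and the kallisto table gave it 0.101 TPM there, so the 2 deposited estimates differ near 0.

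The medians of the 19S classes were below that of the alpha subunits, while single members overlapped those of the core. The 6 ATPases, which form the unfolding ring, had a median of 37.4 TPM, from Psmc6 at 27.6 ± 3.17 to Psmc1 at 50.8 ± 2.64 TPM. Their median lay -0.75 ± 0.08 from that of the alpha subunits on the log2(TPM + 1) scale. The 11 non-ATPase subunits, which include the ubiquitin receptor Psmd4 and the deubiquitinase Psmd14, had a median of 28.6 TPM and lay -0.37 ± 0.03 from the ATPases. Psmd4 had 41.1 ± 0.87 TPM, Psmd14 had 35.7 ± 3.46 TPM, and Psmd12 was the lowest over all transcripts at 19.2 ± 2.96 TPM. Over protein-coding transcripts alone, the mean of Psmd13, 17.7 TPM, lay below that of Psmd12, though their libraries overlapped. All of these class differences had one sign in the 3 libraries, with the same exact permutation p = 0.25.

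Psmd8, a lid subunit, stood above its neighbours. It had 97.6, 118 and 83.9 TPM, and the next non-ATPase subunit, Psmd2, had 60.6, 53.7 and 52.2 TPM. The values did not overlap. Psmd8 also had the widest spread among the 31 subunits of the core and 19S particle outside the inducible set, as given with the spread between libraries.

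Among activators the 2 subunits of PA28 led, and their median was 1.59 ± 0.11 above that of the alpha subunits on the log2(TPM + 1) scale, or 3.01-fold on that scale. Psme3, which forms the nuclear PA28 gamma cap, had 22.6, 21.4 and 20.4 TPM (21.5 ± 1.11). Psme4, which encodes the PA200 activator, had 24.3, 14.01 and 16.7 TPM (18.3 ± 5.32). Psme2b is a near-copy of Psme2 with 51.8, 26.7 and 30.9 TPM (36.5 ± 13.4). Of 716 aligned bases of Psme2-201 and Psme2b-201, 711 were identical (99.3%), with a longest identical run of 264 bases. How reads divide between Psme2 and Psme2b is therefore uncertain, and their expected counts were fractional in every library, as those of 12 members were.

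Assembly factors and the inhibitor were the lowest ubiquitous members. The 20S chaperones Psmg1, Psmg2, Psmg3 and Psmg4 had 3.89 ± 0.40, 4.26 ± 0.28, 6.82 ± 0.60 and 14.2 ± 1.42 TPM. Psmd5 and Psmd9, chaperones of the 19S base, had 5.27 ± 0.80 and 5.30 ± 0.52 TPM, and Psmd10, the oncoprotein gankyrin, had 17.7 ± 3.79 TPM. Psmf1, the PI31 inhibitor, had 6.71 ± 1.12 TPM. Psmc3ip had 0.67 ± 0.16 TPM.

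Counts of most members differed between libraries by more than counting error, as those of most genes did. Of the 49 members that passed the filter on low counts, 41 were called at an adjusted p under 0.05 (edgeR likelihood-ratio test with a Poisson model, Benjamini-Hochberg adjusted over all genes), against 71.7% of the 12515 genes tested. Without replicate 1 the count was 29 of 49, against 40.5%. The 8 members not called were Psmb7, Psmd6, Psmf1, Psmg2, Psmg3, Psmg4, Psma8 and Psmc3ip, of which Psmb7 had an edgeR adjusted p of 0.437. This test compares these libraries and says nothing of the size of a difference.

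The spread was measured as the biological coefficient of variation (BCV), edgeR's estimate of the relative SD beyond counting error. Each gene's estimate borrows from all genes, so it is not the size of that gene's own difference between libraries. Members had a median BCV of 0.129, against 0.172 over all genes tested, and 41 of 49 lay below that median of all genes. The genes compared were not matched to the members by level. Among members, the highest estimates were in genes of low level, with 0.254 for Psmg1, 0.314 for Psma8 and 0.318 for Psmc3ip. Psma8 and Psmc3ip were not called between libraries, and Psma8 had 0.69, 0.69 and 0.70 TPM. Their BCV is therefore not an observed difference between libraries. Without replicate 1 the medians were 0.0860 and 0.105. Within the core and 19S set the BCV ran from 0.113 for Psmb7 to 0.182 for Psmd8. Psme2 and Psmb8 had 0.158 each, and Psme2b had 0.191. Without replicate 1, 38 of 49 members lay below the median of all genes, the core and 19S set ran from 0.0788 for Psmc4 to 0.132 for Psmd8, and Psme2, Psmb8 and Psme2b had 0.113, 0.108 and 0.0962.

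Which library was highest depended on the scale. By CPM, counts scaled by library totals with TMM factors, 31 of 49 members were highest in replicate 3, 9 in replicate 1 and 9 in replicate 2, against 27.7%, 39.8% and 32.6% of all genes tested. By deposited TPM, 40 of 49 were highest in replicate 1 and 5 in replicate 3, against 71.2% and 9.69% of all genes tested. Rescaled over nuclear-encoded protein-coding genes, TPM again placed 30 of 49 in replicate 3. Without replicate 1, 37 of 49 members were higher in replicate 3 than in replicate 2, against 49.6% of 12697 genes. Values that follow are log2 CPM of a library minus the mean of the other libraries.

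Most core and 19S subunits shared one order of the libraries. Of these 31 genes, 26 were highest in replicate 3, against 27.7% of all genes tested, and 25 were lowest in replicate 1. Their medians in replicates 3 and 1 were 0.13 and -0.15. The share of all genes that were lowest in replicate 1 was not counted. By deposited TPM the order was instead highest in replicate 1 for 25 of 31, against 71.2% of all genes tested. All 7 alpha subunits were highest in replicate 3 on the CPM scale, as were 10 of 11 non-ATPase subunits and 5 of 6 ATPases. The exception among the non-ATPases was Psmd8, at -0.31, 0.50 and -0.19 in replicates 1, 2 and 3. Psmb6 was also highest in replicate 2, at 0.25. Without replicate 1, 26 of the 31 were higher in replicate 3 than in replicate 2, with a median log2 difference of 0.08.

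The inducible subunits and PA28 were all lowest in replicate 2, an order that only some core subunits shared. Psmb8 was at 0.23, -0.32 and 0.10 in replicates 1, 2 and 3, and Psme2 at 0.19, -0.35 and 0.15. Psmb9 was at 0.34, -0.23 and -0.11, Psmb10 at 0.04, -0.16 and 0.12, and Psme1 at 0.08, -0.24 and 0.16. All 5 were lowest in replicate 2 on the CPM scale, whereas by TPM, deposited or rescaled, Psmb9 was lowest in replicate 3 and the other 4 in replicate 2. In replicate 1 all 5 were above the mean of the others by TMM-scaled CPM, and 4 of 5 by library totals alone or by rescaled TPM. Of the 31 core and 19S subunits, 5 were above it by TMM-scaled CPM, 4 by library totals and 5 by rescaled TPM, but 27 by deposited TPM. Those 5 were Psma3, Psma4, Psma5, Psmb2 and Psmd12, which were lowest in replicate 2 as well, as was Psmb7. Psma5, for example, was at 0.09, -0.28 and 0.20, an order like that of Psmb10 and Psme1. The activator Psme4, at 0.32, -0.37 and 0.06, was also lowest in replicate 2. Without replicate 1, all 5 inducible and PA28 genes were higher in replicate 3 than in replicate 2, by 0.07 for Psmb9 to 0.32 for Psme2, with a median of 0.26, and Psma5 was higher by 0.31. Of all genes tested without replicate 1, 49.6% were higher in replicate 3. Over all genes tested with it, the median difference was -0.014 in replicate 1 and 0.002 in replicate 2. The shares of all genes that were lowest in replicate 2, or above the mean of the others in replicate 1, were not counted. No test of the difference between the inducible and PA28 genes and the core and 19S genes was made, and it was seen in these libraries alone.

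**Figure D4:**
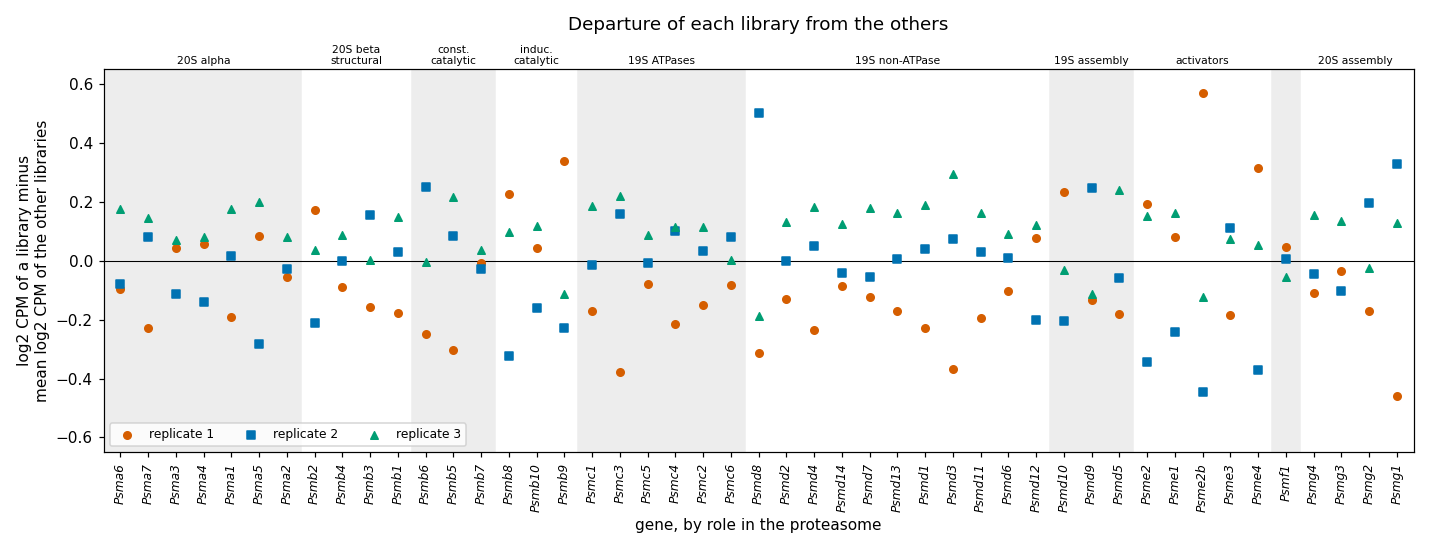
For each member tested apart from Psma8 and Psmc3ip, log2 CPM of a library minus the mean of the other libraries, by role, with 1 point per library. Most core and 19S genes lie above 0 in replicate 3 and below it in replicate 1. By contrast, Psmb8, Psmb9, Psmb10, Psme1 and Psme2 lie above 0 in replicate 1 and below 0 in replicate 2. By deposited TPM, 25 of the 31 core and 19S genes are highest in replicate 1 instead, against 71.2% of all genes tested.

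Genes of interferon-linked peptide loading were measured beside them, from a list chosen with earlier results of these data known. All 7 were called between libraries, against 71.7% of all genes tested. By log2 CPM 5 were highest in replicate 1, 2 in replicate 3 and 0 in replicate 2, against 39.8%, 27.7% and 32.6% of all genes. Without replicate 1 all 7 were called, against 40.5%, and 6 of 7 were higher in replicate 3 than in replicate 2, against 49.6%, the exception being B2m with a log2 difference of -0.11. Nlrc5, the activator of MHC class I genes, had 57.0, 18.5 and 24.3 TPM and differences of 1.03, -0.83 and -0.20. Only 49.6% of its TPM was in protein-coding transcripts, at 23.5, 14.4 and 11.6 TPM. Over these, replicate 1 stayed highest but replicate 3 rather than 2 was lowest. Tap2 had 23.0% in protein-coding transcripts, at 12.1, 7.06 and 9.40 TPM, with replicate 2 still lowest. Tap1, a peptide transporter subunit, had 127, 89.0 and 99.2 TPM and differences of 0.20, -0.27 and 0.07. By TMM-scaled CPM, Nlrc5, Tap1, Tap2, Irf1 and B2m were highest in replicate 1, in which Psmb8, Psmb9 and Psme2 were also highest. Of the 5 inducible and PA28 genes, rescaled TPM also placed 3 highest in replicate 1. Library totals placed 2 there, as did rescaled TPM of coding transcripts alone. The part of library composition in this pattern was not tested.

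Positions of these genes bear on their counts. Psmb9 (minus strand, chr17:34181987-34187764) and Tap1 (plus strand, chr17:34187553-34197225) overlap by 212 bases, and Psmb8 (plus strand, chr17:34197721-34201454) starts 495 bases after Tap1. No source used here says whether reads were counted by strand, so those within the overlap could belong to either gene. Psme1 and Psme2 lie on chromosome 14 with 5911 bases between them, and Psmb5 and Psmb11 lie on chromosome 14 with 3410 bases between them. Psmb5 had 48.9 TPM while its neighbour Psmb11 had 0 expected counts.

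Proteasome genes outside the symbol rule had levels in the same range. Of 11 found, 10 reached 10 TPM in every library, against 17.3% of protein-coding genes. Between libraries 8 of 11 were called, near the 71.7% of all genes tested, and without replicate 1 it was 4 of 11, against 40.5%. Pomp, the maturation chaperone of the core, had 83.4, 81.8 and 82.5 TPM (82.6 ± 0.78), above every 20S chaperone of the Psmg family. Sem1 and Adrm1, a lid subunit and a ubiquitin receptor of the 19S particle, had 36.5 ± 4.31 and 24.8 ± 0.59 TPM. The ubiquitin ligase Ube3c was the lowest, at 5.17 ± 0.64 TPM.

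Regulators of proteasome transcription were read from a list of 5. Nfe2l1, which encodes NRF1, the factor that raises proteasome genes when proteolysis is impaired, had 70.2, 67.2 and 61.3 TPM (66.3 ± 4.55). Nfe2l2, which encodes NRF2, had 62.0, 50.1 and 36.0 TPM (49.4 ± 13.0). Nfe2l3 was at 0.37, 0.01 and 0.02 TPM. Of the 4 tested, 3 were called between libraries, near the share of all genes (71.7%): Nfe2l1, Nfe2l2 and the protease Ddi2, and the deglycosylase Ngly1 was not. Without replicate 1, Nfe2l1 and Nfe2l2 were called and Ddi2 was not, or 2 of 4 against 40.5%. Of the ubiquitin genes, Ubb had 332 ± 64.5 and Rps27a had 241 ± 12.9 TPM, above the mean level of every proteasome member. By library, Rps27a had 245, 251 and 226 TPM, below Psme2 in replicates 1 and 3 (277 and 232 TPM). Rps27a also encodes a ribosomal protein, so its level is not one of ubiquitin alone.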

How the data were processed

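RNA-seq tables of 3 cytosolic libraries of one group were used. Expected counts of genes and transcripts, which need not be whole, were deposited by the authors, with mm10 and GENCODE M21 named in the notes beside the files. TPM was deposited beside them, per the file headers, and includes every listed entry. The deposited transcript share is a percent of its gene's TPM, per the file headers. A further deposited transcript table has the estimated counts and TPM columns that kallisto writes. Aligner, versions and strand setting: not given in the sources used here.

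Members were found by symbol and transcript class, and any member or listed gene could be named. Members and lists were chosen with earlier results of these data known, and some listed genes are not reported here. Expected counts were rounded, filtered with filterByExpr and scaled by TMM in edgeR 4.0.16 (R 4.3.3). A likelihood-ratio test with dispersion 0 compared libraries over all genes, and tagwise BCV came from a fit with 1 group. Log2 CPM used a prior count of 2. Class differences used log2(TPM + 1), and catalytic ratios used no pseudocount. Ratios and class differences had an exact sign-flip permutation test over 3 libraries. The edgeR step was tested on counts simulated from a Poisson model, the model of the test itself, with changes placed only in well-counted genes. Of 12452 genes tested, 92 of 100 changed 1.5-fold and 100 of 100 changed 2-fold were called, with 13 false calls. These figures do not cover libraries that differ by more than counting error, as the real ones did. Python 3.11.15 and Biopython 1.88 made tables and the Psme2 alignment. Depth was 32108408 to 57117456 expected counts, and floors cover counting error only. Alternatives were kallisto estimates, other scalings (with size factors from DESeq2 1.42.0), filters, pseudocounts, each replicate left out and coding transcripts only. FPKM columns were not used.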

Additional observations from a re-analysis of the deposited data

How the results depend on the processing

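No paired analysis was possible because the libraries form a single group. The median member level of 34.8 TPM was 117 when TPM was rescaled over nuclear-encoded protein-coding genes and 17.1 by kallisto TPM, both of which change the scale itself, and 32.9 to 35.8 with a replicate left out. The count of all genes that differed between libraries, 8972, ranged from 5137 to 7688 with a replicate left out, 5137 being the count without replicate 1. The median BCV of members, 0.129, was 0.137 with every gene of at least 1 count and ranged from 0.0860 to 0.170 with a replicate left out. By deposited TPM, 5 rather than 31 members were highest in replicate 3, an alternative chosen after seeing the data. The mean of each catalytic ratio and class difference kept its sign under every alternative run, but over coding transcripts alone the ratio of the sums was -0.09 in replicate 2, and the test could not reach 0.05 with 3 libraries. Depth limits the lowest members, Psma8, Psmc3ip and Psmb11, most.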
